A study of Rattus norvegicus with 6 samples.

Results

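The chaperones of the endoplasmic reticulum (ER) were followed in thyroid RNA from rats without pregnancy (non-pregnant, NP) and rats in late pregnancy (LP). These 10 genes (Hspa5, Hsp90b1, Hyou1, Dnajb9, Dnajb11, Dnajc3, Sdf2l1, Calr, Canx and Manf) were taken by symbol from a table of 15388 genes, and all 10 were present and passed the filter on low counts, as did 11738 genes in all. The group was chosen by function with the earlier LP against NP results of these same 6 samples in view, and the rule sets no threshold on them. Its counts and fold changes are therefore a description, with the background over all genes beside them, and nothing is read from the comparison of both. NP samples came from adult Sprague-Dawley rats that were not pregnant, and LP samples came from adult Sprague-Dawley rats on day 18 of pregnancy, counted from the day of the vaginal plug. Polyadenylated RNA of the thyroid was sequenced, the labels name no drug, diet or genetic change, and 3 samples of each group were deposited. The labels give 3 rats per group but do not tie a sample to one animal.

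Proteins bound for secretion enter the ER unfolded. There the Hsp70 chaperone BiP (Hspa5) and the Hsp90 chaperone Grp94 (Hsp90b1) bind them, J domain proteins bring clients to BiP and set off its ATPase, nucleotide exchange factors release them again, and calnexin (Canx) and calreticulin (Calr) hold glycoproteins by their trimmed sugars. When unfolded protein accumulates, the sensors IRE1, PERK and ATF6 of the unfolded protein response (UPR) raise the transcription of most of these chaperones. The main client in thyroid follicular cells is thyroglobulin (Tg), a large secreted glycoprotein that carries the thyroid hormones.

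The totals were 2752144 to 2965936 counted reads in NP and 3224104 to 3449857 in LP. Within a group, replicates 2 and 3 agreed within sampling noise (chi-square 1.02 per degree of freedom in NP and 0.995 in LP), and they were counted as 1 sample, so each mean ± SD has n = 2, replicate 1 being the other. Replicate 1 differed from the others of its group by 3.7 to 4.11 per degree of freedom over all genes, but for the chaperones only 3 of 20 sets (10 genes in each group) of 3 raw read counts differed beyond counting noise (chi-square p below 0.05), and 8 did after scaling to library totals. Whether replicate 1 is an independent sample is not known from this. The p-values measure only the spread between the deposited samples, which may be technical. Replicate 1 stood apart in both groups, with 0 reads of the actin gene Acta1 against 144 to 186 in the others, and its values are given separately where the chaperones are ordered by size. The model was fitted to all 6 samples, then once more with the reads of replicates 2 and 3 added together (called summed here). Tg took 22.9% to 24.5% of the reads in every sample, the defining product of the labelled tissue, and the hormones of C cells (Calca) and of the parathyroid (Pth) were also abundant, both made by secretory cells other than follicular cells. The 13 skeletal muscle markers in the table took 0.0024% to 0.00765% of the reads in NP and 0.417% to 0.441% in LP.

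All 10 chaperones were lower in LP. The largest differences were those of Hyou1, Hspa5 and Manf, whose LP levels were 46.9%, 50.2% and 51.5% of the NP level, and the smallest were those of Canx and Calr, at 77.7% and 78.6%. For each of the 10 the highest LP sample lay below the lowest NP sample, a separation in this direction found for 18.9% of all tested genes. At an adjusted p-value of 0.05 (quasi-likelihood test of edgeR, adjusted by Benjamini-Hochberg), 10 of 10 were lower, as were 11.7% of the 11738 genes tested, while 15.3% of genes were higher. With library totals in place of TMM normalization (the trimmed mean of log ratios, which sets most genes level) the split over all genes was 18.3% lower and 12.4% higher, and 10 of 10 chaperones were again lower. The 10 also passed at 0.01 (6.79% of genes), with replicates 2 and 3 summed (8.36%), with the replicate number as a block (14.7%) and in DESeq2 (5.99%). Only Hyou1 also passed a fold change of 2, a criterion met by 0.537% of genes in this direction. Hspa5 and Manf lay close to that line and crossed it when reads were scaled to library totals (0.699% of genes) or to Tg (0.682%). The median log2 fold change of the 10 genes was -0.62, against -0.0089 over all tested genes, of which 2.38% had a lower value than -0.62. In a bulk sample, fewer cells that make a transcript and less of it per cell cannot be told apart.

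**Figure D1:**
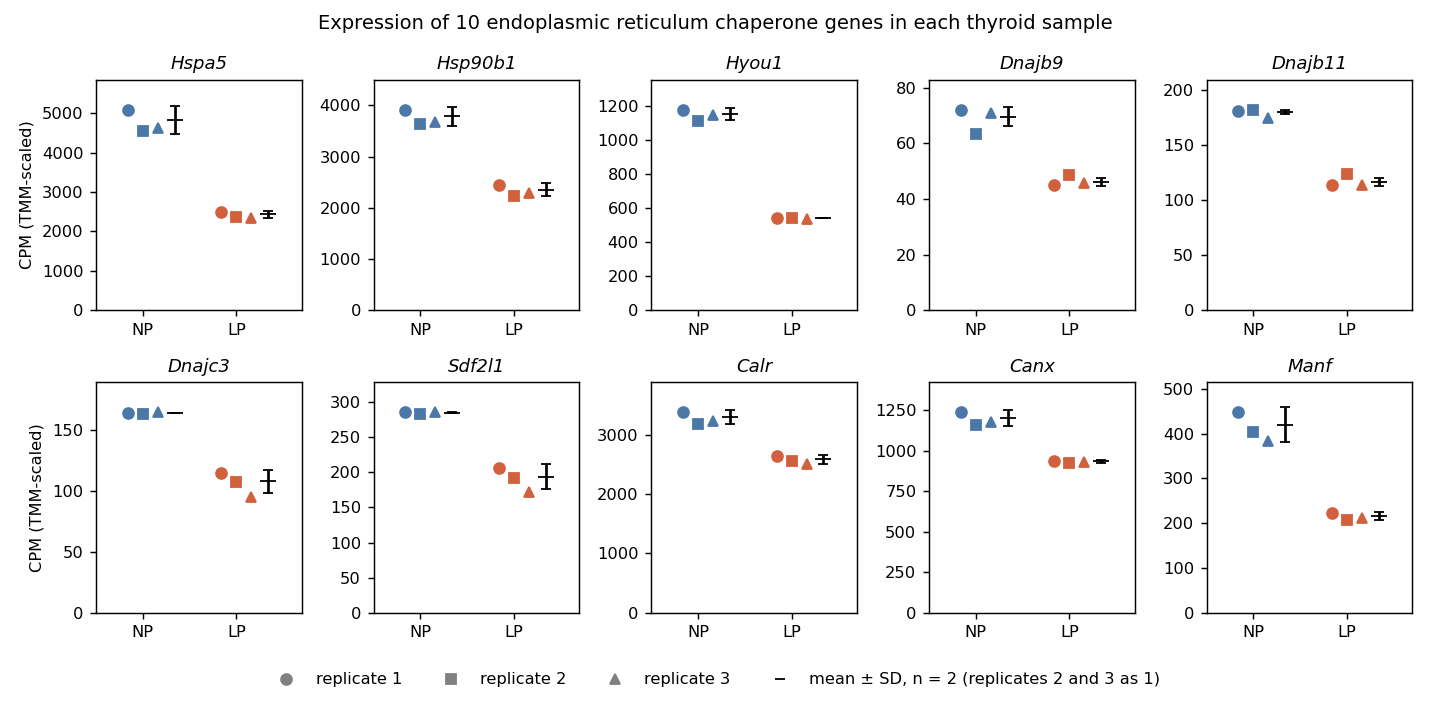
Expression of each ER chaperone gene in the 6 thyroid samples, in CPM (reads scaled to an effective library size of 1000000, vertical axis from 0, a scale of its own in each panel) for NP and LP on the horizontal axis. Coloured points are the 3 replicates and black marks the mean ± SD with replicates 2 and 3 counted as 1 sample (n = 2). In every panel the 3 LP points lie below the 3 NP points.

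The promoters of most of these genes held an element known from the ER stress response. The group was chosen by function, so the share with the element is a description and no independent support. The ER stress response element (ERSE), CCAAT and CCACG with 9 bases of any kind between them, is bound by the factor NF-Y at its CCAAT end and by ATF6 at its CCACG end, and the related ERSE-II is ATTGG and CCACG with 1 base of any kind between them. Both were searched on both strands of the RefSeq promoter windows of the assembly GRCr8, which run from 250 bases before to 50 bases after a transcription start, and the CCAAT half-site, which reads ATTGG on the other strand, stands in both at another spacing and orientation to CCACG. Windows were matched by symbol for 9 of the 10 genes, Manf being the one without a match, and 7 of the 9 held an ERSE or ERSE-II, against 0.117% of all 33469 windows and 0.251% of the 8782 tested genes with a window. The matches are printed here because they are the sequence these chaperones have in common, 5′ to 3′ on the strand of the gene, with the fixed letters of the element in capitals.
Hspa5: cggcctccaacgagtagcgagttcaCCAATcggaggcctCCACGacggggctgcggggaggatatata
Hsp90b1: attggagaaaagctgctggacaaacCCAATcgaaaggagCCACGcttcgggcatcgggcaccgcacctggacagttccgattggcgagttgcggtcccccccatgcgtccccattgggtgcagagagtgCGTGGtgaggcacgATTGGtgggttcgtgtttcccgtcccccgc
Hyou1: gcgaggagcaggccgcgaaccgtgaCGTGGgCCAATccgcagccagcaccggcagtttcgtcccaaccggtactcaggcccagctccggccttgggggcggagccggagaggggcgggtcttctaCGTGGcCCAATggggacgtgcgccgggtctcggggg
Dnajb11: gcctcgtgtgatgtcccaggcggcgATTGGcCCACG
Dnajc3: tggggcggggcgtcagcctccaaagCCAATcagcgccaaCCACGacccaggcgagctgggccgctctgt
Calr: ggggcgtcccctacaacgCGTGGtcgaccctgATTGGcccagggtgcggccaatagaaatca
Canx: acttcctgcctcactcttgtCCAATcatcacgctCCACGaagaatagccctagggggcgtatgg

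In GRCr8 these stretches lie at chr3:38452948-38453015 on the plus strand for Hspa5, chr7:23012322-23012494 on the minus strand for Hsp90b1, chr8:53602669-53602829 on the plus strand for Hyou1 and chr11:91672800-91672835 on the minus strand for Dnajb11. Those of Dnajc3, Calr and Canx lie at chr15:102432509-102432577 on the plus strand, chr19:40213117-40213178 on the plus strand and chr10:35158044-35158107 on the minus strand. All lie before the annotated start except the last base of the Dnajb11 element. The reads were counted on another build, rn5, so these positions locate the sequences and not the counted gene models. The ERSE of Hspa5 ended 25 bases before the start. Hsp90b1 held 1 on each strand. Hyou1 held 2 ERSE-II elements on the minus strand of the gene before the first of its 2 annotated starts, and none in the window of the other start. That window begins at chr8:53602822, past both elements, so they lie further before the other start than its window reaches. The windows of Dnajb9 and Sdf2l1 held neither spelling. The heptamer TGACGTG, the core of the UPR element (UPRE) bound by ATF6 and XBP1, stood in the windows of Hspa5 and Hyou1, in the latter overlapping an ERSE-II, and in 1.81% of all windows.

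**Figure D2:**
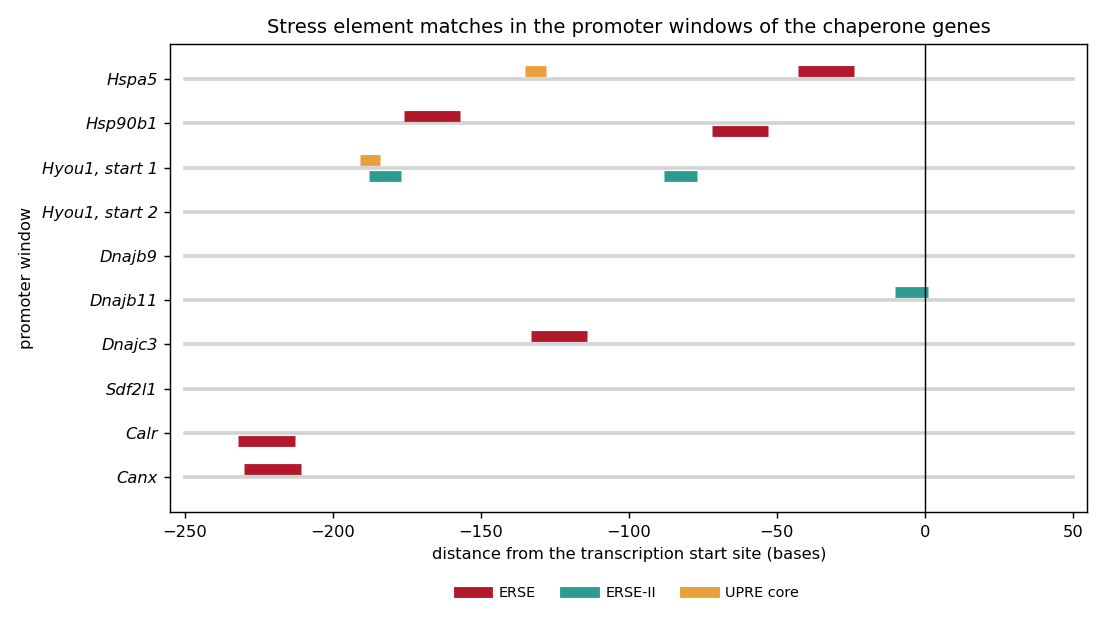
Matches to ERSE, ERSE-II and the UPRE core in the promoter windows of 9 chaperone genes, with distance from the annotated transcription start in bases on the horizontal axis. Bars above a grey line are matches on the strand of the gene and bars below it on the other strand. Of the 10 windows shown, 7 hold an ERSE or ERSE-II.

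The same elements stood in the windows of 15 other tested genes. Of these, 5 were lower in LP with an adjusted p-value below 0.05 and 0 were higher, where 12.0% and 15.4% of the tested genes with a window were lower and higher. Their median log2 fold change was -0.189. The 5 genes, named after their values were seen, were Creld2, Ggct, Herpud1, Prkcz and Xbp1. Creld2, Herpud1 and Xbp1 belong to the unfolded protein response, and the 10 genes besides these 5, such as Nucb1 (0.01, adjusted p = 0.941), did not pass. A match to these letters describes the window and is no evidence that a factor was bound there.

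The chaperones are described here by their roles. Levels are in CPM, the log2 ratio is the log2 fold change of LP over NP, SE is its standard error, and p-values are adjusted over all tested genes. Unless another fit is named, SE and p-values here and below come from the edgeR fit to all 6 samples. They do not rest on the n = 2 of the means. With replicates 2 and 3 summed, the edgeR adjusted p-values of the 10 chaperones ran from 4.9e-08 (Hspa5) to 0.000435 (Canx and Dnajb9). Hspa5 (ENSRNOT00000025067), which encodes BiP, the central Hsp70 of the ER, had 5092, 4556 and 4626 CPM in NP replicates 1, 2 and 3 and 2503, 2373 and 2349 CPM in LP. The lowest NP sample was thus well above the highest LP sample, and the raw reads (13860 to 14199 against 7807 to 7974) fell although the LP libraries were deeper. The mean fell from 4841 ± 354 to 2432 ± 100 CPM (SD, n = 2), a log2 ratio of -0.98 (SE 0.038, adjusted p = 1.22e-12). Hyou1 (ENSRNOT00000044613), a large Hsp70 relative that acts as a nucleotide exchange factor of BiP, had 1177, 1108 and 1145 CPM in NP and 541, 543 and 535 CPM in LP. Its log2 ratio of -1.08 (SE 0.042, adjusted p = 1.32e-12) was the largest in size of the 10, and its LP samples were nearly equal to each other. Hsp90b1 (ENSRNOT00000029435), which encodes Grp94, the Hsp90 of the ER that takes over clients from BiP, had 3915, 3632 and 3682 CPM in NP and 2446, 2239 and 2295 CPM in LP. It fell less than Hspa5, to 62.2% of the NP level, with a log2 ratio of -0.69 (SE 0.036, adjusted p = 9.24e-11).

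The J domain partners of BiP fell by similar amounts. Dnajb9 (ENSRNOT00000005363), or ERdj4, which takes part in degradation of misfolded clients and holds IRE1 inactive, was the least abundant in reads, with read counts of 193 to 215 (NP) and 141 to 163 (LP). It had 72.1, 63.4 and 70.8 CPM in NP and 45.2, 48.5 and 45.9 CPM in LP. Its log2 ratio was -0.56 (SE 0.081, adjusted p = 4.19e-05), the widest SE of the 10 beside the lowest counts. Dnajb11 (ENSRNOT00000002462), or ERdj3, a lumenal J protein that binds clients directly, had 181.5, 182 and 175 CPM in NP and 114, 124 and 114 CPM in LP, a log2 ratio of -0.61 (SE 0.057, adjusted p = 2.38e-07). Dnajc3 (ENSRNOT00000014182), or P58IPK, a J protein also known as an inhibitor of the kinase PERK, had 164, 163 and 164 CPM in NP and 114, 107 and 95 CPM in LP. Its NP samples were almost level while its LP samples spread more, and its log2 ratio was -0.63 (SE 0.065, adjusted p = 6.99e-07). Sdf2l1 (ENSRNOT00000002540), which forms a complex with ERdj3 and keeps clients from aggregating, showed the same contrast in spread. It had 285, 283 and 285 CPM in NP against 206, 191 and 172.5 CPM in LP, a log2 ratio of -0.58 (SE 0.064, adjusted p = 1.78e-06).

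The lectin chaperones fell least. Calr (ENSRNOT00000004091), the soluble calcium-binding lectin of the lumen, had 3376, 3183 and 3233 CPM in NP and 2642, 2552 and 2510.4 CPM in LP. The gap between the lowest NP and the highest LP sample was wider than the spread within either group. Its log2 ratio was -0.35 (SE 0.031, adjusted p = 1.21e-07). Canx (ENSRNOT00000049942), the membrane-bound lectin, had 1237, 1158 and 1179 CPM in NP and 939, 928 and 930.5 CPM in LP, also a log2 ratio of -0.35 (SE 0.039, adjusted p = 2.04e-06). Manf (ENSRNOT00000019107), a small secreted protein that binds BiP and is released under ER stress, fell with Hspa5 and Hyou1. It had 447.5, 404 and 383 CPM in NP and 223, 207 and 213 CPM in LP, a log2 ratio of -0.94 (SE 0.063, adjusted p = 2.64e-09).

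The differences are ordered here by size, with replicate 1 and the average of replicates 2 and 3 compared with their NP counterparts separately. Hyou1 had log2 values of -1.12 and -1.06, Hspa5 of -1.02 and -0.96, and Manf of -1.0 and -0.91. The values of Hspa5 and Manf overlapped, while those of Hyou1 lay apart from both. Hsp90b1 (-0.68 and -0.69), Dnajc3 (-0.52 and -0.69), Dnajb11 (-0.67 and -0.59), Sdf2l1 (-0.47 and -0.64) and Dnajb9 (-0.67 and -0.51) came next, and overlapped with none of the first 3. Among these, Hsp90b1 overlapped Dnajc3 alone, and the other 4 overlapped each other. Calr (-0.35 and -0.34) and Canx (-0.40 and -0.33) overlapped each other and none of the rest. No test was made of these differences between genes.

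**Figure D3:**
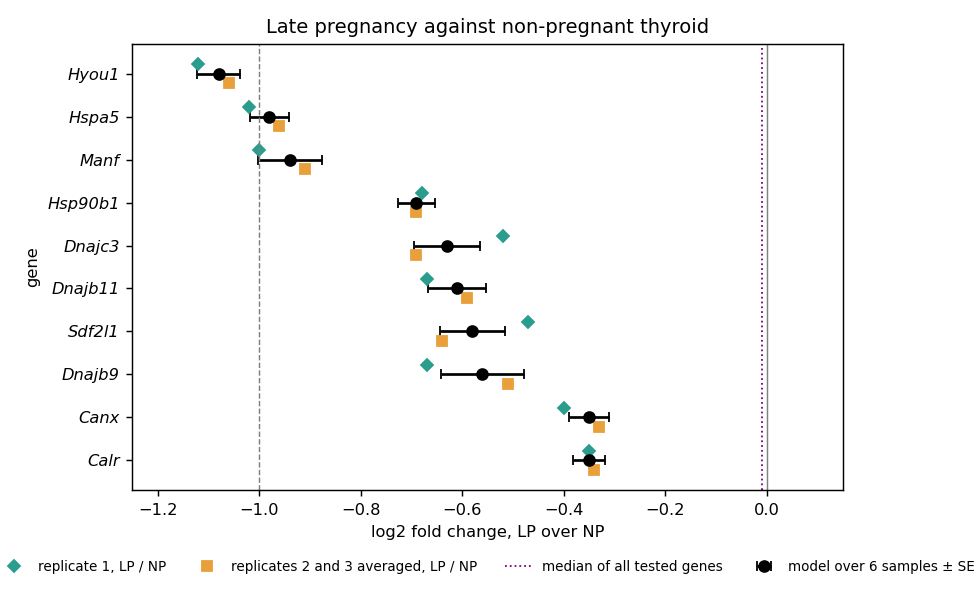
Log2 fold change of LP over NP (horizontal axis) for the 10 chaperone genes, ordered by size. Black points with bars are the model over 6 samples ± standard error, diamonds replicate 1 alone and squares replicates 2 and 3 averaged, with the dashed line at a fold change of 2 and the dotted line at the median of all tested genes. Values run from -1.08 for Hyou1 to -0.35 for Calr and Canx.

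As a share of the library, the 10 genes together took 1.51% to 1.62% of the reads in NP and 0.902% to 0.946% in LP. Tg itself, their main client, had 223863 to 241790 CPM in NP and 234657 to 250657 CPM in LP, ranges that overlap, with a log2 ratio of 0.063 (SE 0.024, edgeR adjusted p = 0.060). The edgeR adjusted p became 2.49e-43 with the replicate number as a block. Counted per 1000 Tg reads, the reads of the 10 genes came to 66.0, 65.8 and 66.5 in the NP samples against 39.0, 39.7 and 39.3 in those of LP. Hspa5 alone went from 20.4 to 21.1 reads per 1000 Tg reads in NP to 9.96 to 10.1 in LP. The chaperone reads per Tg read thus varied little within a group and were separated between groups.

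The list of 14 regulators of the unfolded protein response had a median log2 fold change of -0.20. Besides sensors and transcription factors, it held the proteases Mbtps1 and Mbtps2 and the phosphatase subunits Ppp1r15a and Ppp1r15b. Of the 14 genes, 7 were lower in LP and 0 higher, beside 11.7% and 15.3% of all tested genes. The number lower was 4 in DESeq2 (5.99% of all genes), 4 with replicates 2 and 3 summed (8.36%), and 4 without LP replicate 2. Xbp1, the transcription factor activated by IRE1 splicing, fell from 287 ± 9.4 to 231 ± 19 CPM, a log2 ratio of -0.33 (SE 0.062, adjusted p = 0.000606). Atf6b, a relative of Atf6, also fell (log2 fold change -0.34, SE 0.057, adjusted p = 0.000199), as did Creb3l2, a membrane-bound factor of the same kind (-0.23, adjusted p = 0.00801). Atf6 itself had a log2 fold change of -0.25 and Atf4, the effector of PERK, one of -0.21. Their adjusted p-values of 0.0208 and 0.0174 became 0.0679 and 0.0702 with replicates 2 and 3 summed. Ern1, which encodes IRE1, had a log2 fold change of 0.20 (adjusted p = 0.0909). Eif2ak3, which encodes PERK, had 0.05 (adjusted p = 0.768), and Ddit3, the stress factor CHOP, had 0.22 (adjusted p = 0.246). None of these 3 passed the test. The counts show total transcripts and not the spliced form of Xbp1.

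The remaining machinery of the ER was counted in 7 lists, which with the regulators held 123 tested genes. Of the 123, 63 (51.2%) were lower in LP and 3 higher, beside 11.7% lower and 15.3% higher over all tested genes, and with replicates 2 and 3 summed 53 were lower (8.36% of all genes) and 3 higher. Where a list had 0 genes higher in edgeR, it had 0 higher in DESeq2 and 0 at an unadjusted p below 0.05, except for the regulators, where Ern1 was the 1 gene higher at that unadjusted level. Among the other cofactors of BiP and stress-induced secreted factors, 3 of 13 were lower and 1 was higher. Creld2, a secreted factor induced by ER stress, fell most, from 483.5 ± 23 to 155 ± 5.9 CPM, a log2 ratio of -1.64 (SE 0.061, adjusted p = 8.04e-13), more than any of the 10 chaperones. Hspa13, an Hsp70 relative of the ER, and Sec63, the J protein of the translocation channel, had log2 fold changes of -0.42 and -0.40 (adjusted p = 0.00449 and 3.15e-05). Cdnf, the paralog of Manf, went the other way, with 1, 2 and 2 reads in the NP samples against 55, 67 and 58 in those of LP, a log2 ratio of 4.92 (SE 0.32, adjusted p = 2.33e-09). Over the groups its reads were 5 and 180, a ratio of 30.9 after scaling to library totals (95% exact conditional interval 13 to 96.2, counting error only). The skeletal muscle markers rose in the same samples, and their part in the rise of Cdnf was not tested.

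Of the disulfide isomerases and oxidoreductases, which form and reshuffle disulfide bonds, 11 of 18 were lower and 0 higher. Over all tested genes 11.7% were lower and 15.3% higher. Pdia4 fell from 1046 ± 51 to 522 ± 20 CPM, a log2 ratio of -1.0 (SE 0.047, adjusted p = 1.95e-11). Ero1lb, the oxidase that recharges the isomerases, had -0.89 (adjusted p = 4.86e-08), Pdia5 -0.86 (adjusted p = 6.34e-05) and Txndc11 -0.50 (adjusted p = 2.24e-05). Of the prolyl isomerases of the ER, 3 of 8 were lower, led by Ppib, which encodes cyclophilin B (-0.47, adjusted p = 1.82e-06), and Fkbp2 (-0.35, adjusted p = 0.000767). The third, Fkbp9, had -0.18 and did not pass with replicates 2 and 3 summed (adjusted p = 0.186).

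Of the genes of translocation into the ER, 16 of 20 were lower (10 in DESeq2) and 0 higher, with a median log2 fold change of -0.36. Over all tested genes 11.7% were lower (5.99% in DESeq2) and 15.3% higher. Spcs3 and Spcs2, subunits of the signal peptidase, fell by 0.67 and 0.55 on the log2 scale (adjusted p = 1.32e-06 and 6.86e-07). Ssr3, of the translocon-associated complex, fell by 0.67 and Sec61b, of the channel itself, by 0.60 (adjusted p = 8.55e-07 and 9.86e-06). Of the genes of N-glycosylation and glycoprotein folding, 8 of 12 were lower (5 without NP replicate 1, LP replicate 2 or LP replicate 3) and 0 higher, including Dad1, an oligosaccharyltransferase subunit (-0.54, adjusted p = 4.22e-06), Lman2 (-0.38, adjusted p = 0.000124), Ganab, which trims glucose for the calnexin cycle (-0.30, adjusted p = 0.000746), and Lman1, a cargo receptor for export (-0.28, adjusted p = 0.0153). Of the genes of ER-associated degradation, 13 of 25 were lower (8 in DESeq2) and 1 was higher. Herpud1, a stress-induced scaffold of the ubiquitin ligase, fell from 379 ± 20 to 261 ± 18 CPM (-0.54, adjusted p = 5.54e-06), and Os9, a lectin that selects misfolded glycoproteins, had -0.40 (adjusted p = 1.47e-05). Ubxn4 and Edem2 had -0.38 and -0.39 (adjusted p = 0.000137 and 0.00479). The 1 gene that was higher was Nploc4, a cofactor of the ATPase Vcp (0.29, adjusted p = 0.00465), named here after its value was seen, and it did not pass in DESeq2 or with reads scaled to Tg.

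**Figure D4:**
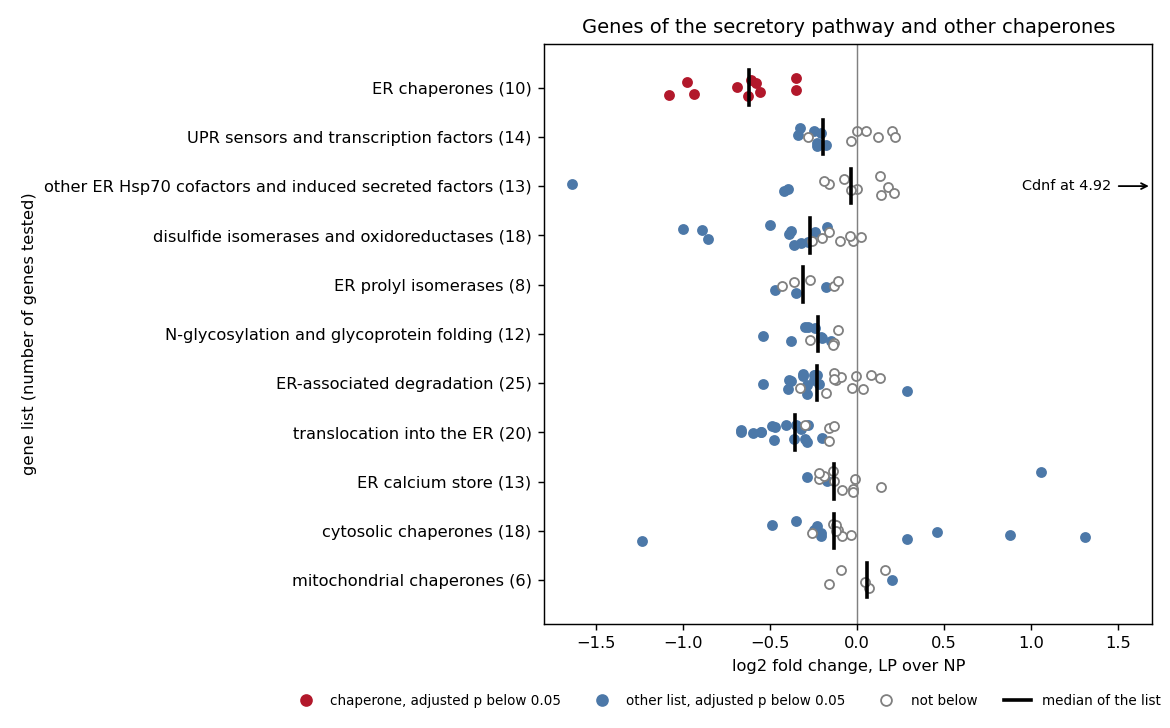
Log2 fold change of LP over NP (horizontal axis) for every tested gene of the ER chaperones, 8 further lists of the ER and the chaperones of the cytosol and mitochondria, 1 point a gene. Filled points passed an adjusted p-value of 0.05 and the black bar is the median of a list, which is -0.62 for the ER chaperones, -0.36 for translocation and 0.055 for the mitochondrial chaperones. Cdnf, at 4.92, lies beyond the axis.

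The calcium store of the ER and the chaperones outside it gave a mixed picture. Of 13 genes of the calcium store, 2 were lower and 1 was higher, beside 11.7% lower and 15.3% higher over all genes. The number lower was 1 without NP replicate 3, without LP replicate 3 or with replicates 2 and 3 summed. It was 4 without LP replicate 1 and with the replicate block. With reads scaled to Tg it was 5, and with library totals it was 6 (18.3% of all genes). Atp2a2, the calcium pump SERCA2 that is abundant in striated muscle, rose from 61.8 ± 12 to 132 ± 14 CPM (log2 fold change 1.06, SE 0.097, adjusted p = 1.89e-07), whereas Atp2a3 had -0.29 (adjusted p = 0.00301). Calu, a calcium-binding protein of the lumen, had -0.17, and its adjusted p of 0.0196 became 0.126 with replicates 2 and 3 summed. Of 18 tested cytosolic chaperone genes, 7 were lower (4 without LP replicate 2) and 4 higher. Hsph1, an exchange factor of cytosolic Hsp70, fell by 1.24 on the log2 scale (SE 0.061, adjusted p = 3.64e-11) and the J protein Dnaja1 by 0.49 (adjusted p = 7.00e-06). Bag3, a co-chaperone with a known role in striated muscle, rose by 1.31 (SE 0.098, adjusted p = 1.24e-08) and Dnaja4 by 0.88 (adjusted p = 6.84e-06). The part of the skeletal muscle markers in these rises was not tested. Of 6 mitochondrial chaperone genes 0 were lower in edgeR or DESeq2 or at an unadjusted p below 0.05, but 2 were lower with library totals (18.3% of all genes). Hspa9, the mitochondrial Hsp70, had 0.20, with an adjusted p of 0.0107 that became 0.0632 with replicates 2 and 3 summed.

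Markers of other cells were set beside the fall of the chaperones. Of the 11 skeletal muscle markers tested, 10 were higher in LP, and the summed level of the list went from 23.7 to 74.6 CPM in NP to between 4285 and 4555 CPM in LP. With these markers, every gene raised over 2-fold and Tg left out of the normalization, Hspa5 had a log2 ratio of -0.96 and 10 of 10 chaperones were lower, as were 10.4% of genes. This changed only the scaling, by a median of 0.02 in log2 fold change over all genes, with the raised genes picked from these same data. The part of muscle tissue in the fall of the chaperones was not tested. Of 8 markers of B cells and plasma cells, the latter rich in ER chaperones, 7 had at most 10 reads in every sample, Mzb1 between 0 and 3. The other, Prdm1, had 17 to 40 reads and a log2 ratio of -0.16 (edgeR adjusted p = 0.72). Of 12 markers of follicular cells, 4 were lower and 3 higher, beside 11.7% and 15.3% of all tested genes. The TSH receptor gene Tshr and the iodide transporter gene Slc5a5 had log2 fold changes of -0.68 and -0.94 (adjusted p = 3.99e-07 and 3.08e-10). The C cell hormone gene Calca fell by 0.32 (adjusted p = 3.65e-08) and the parathyroid hormone gene Pth by 0.30 (adjusted p = 3.42e-06), while Scg2, another C cell marker, rose by 0.42 (adjusted p = 0.0058). The other 6 of the 8 C cell markers and 2 of the 3 parathyroid markers did not pass. The part of C cells and parathyroid cells in the fall of the chaperones was not tested. The 6 macrophage and 3 adipocyte markers tested had median log2 ratios of 0.20 and 0.19 and did not pass in edgeR or DESeq2 (3 and 0 at an unadjusted p below 0.05). In the edgeR fit with replicates 2 and 3 summed, 1 macrophage marker was higher. Ucp1, an adipocyte marker with 2 to 12 reads that was not tested in the main fit, was lower in the summed fit (adjusted p = 0.0263). Of 5 fibroblast and 4 endothelial markers 1 and 2 were lower. Of 4 airway markers only Scgb1a1, with 1 to 20 reads, was tested and was higher.

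The genes outside the group whose log2 CPM followed the mean profile of the 10 chaperones most closely over the 6 samples were Dsc3, Csf3, Pdia5, Tfcp2l1 and Snx22, with Pearson correlations from 0.999 to 0.9998, among 7933 genes with a mean of at least 50 reads. Their log2 fold changes were -0.59, -1.01, -0.86, -1.3 and -2.07. These correlations rest on 6 points in 2 groups that share the NP against LP contrast, and are given as a description.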

How the data were processed

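Thyroid RNA of rats (3 NP and 3 LP samples) was sequenced as polyadenylated RNA on an Illumina instrument. The authors mapped reads to rn5 with TopHat 1.4.0 and deposited raw read counts per gene from HTSeq-count on Ensembl models. The strand setting and the choice of 1 transcript identifier per gene are not given in the sources used here. Members and lists were chosen with earlier results of these data known.

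All 15388 genes were read, edgeR's default filter kept 11738, and LP was compared with NP in R 4.3.3 by edgeR 4.0.16 (glmQLFit, glmQLFTest, TMM, no block, Benjamini-Hochberg over all tested genes). Standard errors are the absolute log2 fold change over the square root of F. CPM are scaled to the TMM-adjusted totals of the tested genes. A level of 3 reads was 0.893 to 1.08 CPM, for counting error only. Library totals of replicates 1, 2 and 3 came to 2752144, 2965936 and 2958075 (NP) or 3224104, 3449857 and 3447439 (LP). DESeq2 1.42.0 was an alternative.

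Genes named are the 10 members, 6 regulators, Tg, up to 4 called genes per list with the largest change, and 5 genes most like the members. Marker genes and a few genes said to be chosen later are named besides. Same-numbered NP and LP samples deviated together from their group means (correlations across genes 0.493, 0.223 and 0.192), a pairing taken from the data, since the labels give only a number. Replicates 2 and 3 deviated together across numbers as well (0.216 and 0.216), so the numbers set replicate 1 apart and do not tell 2 from 3. A simulated log2 change of 1 was recovered for 99.5% of 200 genes by edgeR on 11732 genes, with 8 unchanged genes called. The simulation drew independent samples at 1 common dispersion, unlike replicates 2 and 3 here. It changed only genes with a mean of at least 50 reads, by more than any chaperone but Hyou1. It therefore checks the code and does not give the recovery to be had in these data. Gene lengths were not used, so levels are not compared between genes. Promoter windows are RefSeq GRCr8, matched by symbol. Other splits, set tests and the authors' own comparisons were not used.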

Additional observations from a re-analysis of the deposited data

How the results depend on the processing

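All 10 chaperones stayed lower, and past an adjusted p of 0.05, in each of the 16 alternative fits, with a largest adjusted p of 0.000455, while between 5.99% and 18.3% of all genes were called lower across the fits. The number past a fold change of 2 was 1 and became 3 with library totals and 3 with reads scaled to Tg, the latter chosen after seeing the data. It ranged from 1 to 2 with single replicates left out, being 2 without NP replicate 2, NP replicate 3 or LP replicate 1. The replicate block left 10 of 10 lower and changed no call of a chaperone. Its biological coefficient of variation was 0.0131, against 0.0645 without the block, so its p-values rest on very little spread. No scaling moved the median log2 fold change of all genes by more than 0.072.

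Among the other genes, DESeq2 called 44 of the 123 ER genes outside the chaperones lower (5.99% of all genes), against 63 in edgeR (11.7% of all genes). Creb3l2, Atf6, Fkbp9 and Lman1 did not pass in DESeq2 (adjusted p = 0.0928, 0.187, 0.216 and 0.135). By single replicates left out, Atf6 did not pass without NP replicate 3, LP replicate 2 or LP replicate 3 (adjusted p = 0.0768, 0.0602 and 0.113), nor Atf4 without NP replicate 1 or LP replicate 2 (0.0618 and 0.0873). Fkbp9 did not pass without NP replicates 2 or 3 or LP replicates 2 or 3 (0.0933, 0.158, 0.0702 and 0.162). Lman1 did not pass without NP replicates 1 or 2 or LP replicate 3 (0.0719, 0.0571 and 0.0715). Calu did not pass without NP replicate 3 or LP replicates 2 or 3 (0.074, 0.0855 and 0.0703), and Hspa9 not without NP replicate 2 or LP replicate 2 (0.069 and 0.0503). Eif2ak3, not called in any fit, turned from 0.05 to -0.022 with library totals and -0.014 scaled to Tg, and ranged from -0.032 without NP replicate 1 to 0.11 without NP replicate 3. Tg, at 0.063, turned to -0.0089 with library totals, and passed without NP replicate 1 or LP replicate 2 (adjusted p = 0.000316 and 0.0431), with muscle markers, raised genes and Tg left out of the normalization (0.0142), with a mean of at least 50 reads (0.0234) and with the replicate block. The cause of these shifts was not tested. Depth limits Dnajb9 most, with 141 to 215 reads a sample.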
